A study of Mus musculus with 30 samples.

Results

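The subunits of the mitochondrial respiratory chain were followed in the livers of C57BL/6 (B6) and DBA/2 (D2) mice, both inbred strains, kept on diets with different amounts of iron. The genes were chosen by name: every probe on the array whose gene symbol began with Nduf, Uqcr, Cox4, Cox5, Cox6, Cox7, Cox8 or Atp5, or was Sdha, Sdhb, Sdhc, Sdhd, Cycs or Cyc1. This gave 84 genes with 117 probes, of 28785 gene names with 41174 probes in all. They comprised 35 subunits of complex I, 4 of complex II, 8 of complex III, 17 of complex IV, 15 of complex V and the electron carrier Cycs. The remaining 4 names were picked up by their spelling and are no subunits of these enzymes in their own right: Ndufaf1 is an assembly factor of complex I, Cox4nb (Emc8) belongs to a complex of the endoplasmic reticulum membrane, Cox7a2l acts in joining complexes III and IV, and Atp5s (Dmac2l) is a factor coupled to complex V. Ndufa4, named for complex I, was counted with complex IV, where it is now placed.

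Liver RNA of each mouse was hybridised to its own array in a single dye, with 5 mice in each of the 6 groups. The balanced diet held 200 mg iron/kg, the enriched diet 8.3 g/kg, and the deficient diet had under 3 mg/kg. No source used here gives their sex, their age or how long they were fed. The diets had acted on the livers: Bmp6, a signal for iron stores, was 1.20 log2 units higher on the enriched and 1.07 lower on the deficient diet (log2 change -1.07), and Tfrc, the receptor that takes up iron-bound transferrin, was 1.48 lower (log2 change -1.48) and 2.51 higher. Hamp, the iron hormone hepcidin, fell with deficiency (adjusted p 5.54e-12) and did not pass with enrichment (1.90, adjusted p 0.102). Of 6 hepatocyte markers, 5 were tested and all 5 were above background on at least 50% of the arrays.

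The respiratory chain passes electrons from NADH and succinate to oxygen and uses the energy to pump protons, which complex V lets flow back to make ATP. Iron sits in the chain as iron-sulfur clusters in complexes I, II and III, and as heme in complexes II, III and IV and in cytochrome c. Complex V holds no iron, and the iron of complex IV lies in heme groups bound by a subunit that mitochondrial DNA encodes; mitochondrial transcripts were not analysed here. The iron cofactors of the nuclear-encoded subunits sit in 11 of the 84 genes: Ndufs1, Ndufs7, Ndufs8, Ndufv1 and Ndufv2 carry iron-sulfur clusters of complex I, Sdhb those of complex II and Uqcrfs1 that of complex III, while Sdhc and Sdhd hold heme b, Cyc1 heme c1 and Cycs heme c.

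Transcription of these nuclear genes is known to draw on the factors NRF1, GABPA, YY1, CREB and ESRRA, so the promoters were read for their core letters. RefSeq promoter sequences (build GRCm38.p6) were matched for 68 of the 84 genes, and the 250 bases before the annotated start were searched on both strands. The NRF1 core, GCGCA and GCGC with any base between them, was found in 12 of the 68 (17.6%), against 3.86% of the 27025 promoters in the table, and the GABPA core CCGGAAG likewise in 12 (17.6%), against 7.05%; 21 genes held either. The CREB core TGACGT was found in 10 (14.7%, against 6.56%), the ESRRA core TCAAGGTCA in 1 (1.47%, against 0.366%) and the YY1 core AAGATGGC in 0 (against 1.59%). NRF1 letters stood in 21.1% of 38 promoters of complexes I to III and in 15.4% of 26 of complexes IV and V, and GABPA letters in 15.8% and 19.2%. A match describes letters and not a bound site, and the letters are those of the reference genome, not of D2. 4 promoters are shown, those of the members with the smallest adjusted p with deficiency (Cycs averaged over the strains, Cox6a1 in D2) and between the strains (Atp5h and Cox7c): Cycs at chr6:50566570-50566819, Cox6a1 at chr5:115348959-115349208, Atp5h at chr11:115419920-115420169 and Cox7c at chr13:86046796-86047045, all read 5′ to 3′ on the minus strand up to the base before the start. Capitals mark the matches. In Cycs they are CREB letters, which begin 169, 167 and 15 bases before the start (the 169 and 167 matches overlap in a palindrome, counted once on each strand); in Cox6a1 they are NRF1 letters at 162 and 117 and GABPA letters at 16; in Atp5h they are NRF1 letters at 141 and GABPA letters at 38. None of the 5 motifs occurs in the Cox7c window.
Cycs: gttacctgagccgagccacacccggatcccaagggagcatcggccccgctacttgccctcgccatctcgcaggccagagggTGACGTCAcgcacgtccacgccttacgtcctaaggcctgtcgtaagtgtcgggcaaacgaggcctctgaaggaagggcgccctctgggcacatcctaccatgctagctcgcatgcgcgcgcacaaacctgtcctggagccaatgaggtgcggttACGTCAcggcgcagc
Cox6a1: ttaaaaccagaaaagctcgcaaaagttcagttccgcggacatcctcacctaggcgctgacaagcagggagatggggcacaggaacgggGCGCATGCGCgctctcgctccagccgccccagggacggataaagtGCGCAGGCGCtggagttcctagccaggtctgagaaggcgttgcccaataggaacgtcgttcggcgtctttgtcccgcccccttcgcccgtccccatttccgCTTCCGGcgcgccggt
Atp5h: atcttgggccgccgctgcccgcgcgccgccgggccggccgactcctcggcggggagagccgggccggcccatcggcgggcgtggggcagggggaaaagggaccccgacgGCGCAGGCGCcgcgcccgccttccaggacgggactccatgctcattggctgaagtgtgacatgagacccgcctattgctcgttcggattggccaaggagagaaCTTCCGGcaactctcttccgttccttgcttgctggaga
Cox7c: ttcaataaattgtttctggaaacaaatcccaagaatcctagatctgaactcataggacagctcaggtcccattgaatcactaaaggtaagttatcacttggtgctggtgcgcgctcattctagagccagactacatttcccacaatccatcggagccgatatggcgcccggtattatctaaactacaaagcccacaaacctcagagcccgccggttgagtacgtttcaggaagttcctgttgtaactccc

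These genes were among the brightest on the array and among the steadiest between mice. The values given are log2 normalised intensities, which compare mice for 1 probe but not 1 gene with another. The median level of the 83 genes tested was 14.66, against 8.644 over all 21070 genes tested, and higher than 96.1% of genes. The median residual SD between mice of a group was 0.0851 on the log2 scale, against 0.243, so the median SE of a diet difference averaged over strains was 0.0445, against 0.107. 77 genes were above background on all 30 arrays, no member probe was saturated, and 7 values of outlier spots were missing. Of the other 6 tested genes, Cox6c, Cox7a2l, Ndufb3 and Uqcrb were above background on every array with a value and lacked the 7 outlier spots, and Cox8b and Cox4i2 were not above background on all arrays. These and Cox8c are isoforms known from other tissues: Cox8c was above background on 0 arrays and was not tested; Cox8b, the isoform of heart and muscle, was above background on 8 arrays and Cox4i2, an isoform known from lung, on 19. Cox6a2 and Cox7a1 (heart and muscle isoforms) and Cox6b2 (testis isoform) were above background on all 30. Residual SDs were 0.407 for Cox8b, 0.384 for Cox4i2, 0.359 for Cox6a2, 0.26 for Cox7a1 and 0.233 for Cox6b2, against 0.0521 for Atp5h, a stalk subunit of complex V, and 0.0532 for Uqcrfs1. The members lie at the upper end of the intensity range. Values under other scalings between arrays are given beside several of the results, and the part of brightness in how they moved was not tested.

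With iron enrichment a single member passed the test. Averaged over the strains, 1 of 83 genes passed limma's test (adjusted p under 0.05 over all 21070 genes) in enriched against balanced livers, and it was lower; 2.23% of all genes passed and 1.01% were lower, and the median change was -0.033 log2 (all genes 0.0079). The gene was Ndufb3, an accessory subunit in the membrane arm of complex I. In B6 its log2 levels were 13.58, 13.47, 13.57, 13.79 and 13.52 when iron was balanced and 13.28, 13.45, 13.43, 13.33 and 13.42 on the enriched diet. In D2 they were 13.38, 13.45, 13.43 and 13.56 on the balanced diet, with 1 value missing as an outlier spot, and 13.12, 13.11, 13.32, 13.29 and 13.41 on the enriched diet. All enriched B6 mice lay below all balanced B6 mice, while the D2 groups overlapped at 1 enriched mouse. The fall was 0.21 on the log2 scale (log2 change -0.21, SE 0.050, adjusted p 0.0252), a level 1.15-fold lower, with 10 of 10 enriched mice below their strain's balanced mean. It no longer passed without D2 balanced mouse 5 (-0.19, adjusted p 0.0555) or without D2 enriched mouse 2 (-0.19, adjusted p 0.056), in a range of 0.00771 to 0.879 over all alternatives. Within scan days 2 and 3 alone it was -0.11 and -0.34. Some groups held 1 array there: B6 balanced, B6 enriched and D2 enriched on day 2, and D2 balanced on day 3. Uqcrc1, a core protein of complex III, passed by its dimmer probe when every probe was tested (-0.16, adjusted p 0.0368) and had a like change without passing by the brighter (-0.17, adjusted p 0.21).

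For most members the fit over all mice bounded the change with enrichment. The 95% interval of the change averaged over the strains lay within 0.3 log2 units of 0 for 78 of 83 genes. The others were Ndufb3 and the dim or variable isoforms Cox4i2, Cox6a2, Cox7a1 and Cox8b. All 11 subunits that hold iron cofactors lay within that bound, with interval limits from -0.262 to 0.17, and none of them passed. Sdhb came nearest (-0.14, adjusted p 0.0913) and passed in 2 of 44 alternatives, with no normalisation (-0.23, adjusted p 0.0478) and with unmoderated variances (adjusted p 0.0433). Ndufs8 went beyond the bound on scan day 3 alone (-0.42). The only D2 balanced array of that day was mouse 5, with Ndufs8 at 12.05 where the other D2 balanced mice had 11.58 to 11.7. On scan day 2 alone the Ndufs8 change was 0.10. The other cofactor subunits had log2 changes of -0.03 (Ndufs1), 0.07 (Ndufs7), -0.14 (Ndufs8), -0.03 (Ndufv1), -0.03 (Ndufv2), -0.06 (Sdhc), 0.06 (Sdhd), -0.02 (Uqcrfs1), -0.09 (Cyc1) and 0.05 (Cycs). Medians were -0.033 for complexes I to III, where 1 of 47 genes passed, and -0.028 for complexes IV and V, where 0 of 31 did.

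Strain by strain, no member passed in either, but the signs differed. In B6, 33 of 83 changes were below 0 with a median of 0.014 (all genes 0.0295, 5.83% of them passing). In D2, 72 of 83 were below 0 with a median of -0.089 (all genes -0.006, 0.0902% passing), and the members lay below all genes with 75th percentile scaling (-0.1339), cyclic loess (-0.0704) and no normalisation (-0.144) as well. At an unadjusted limma p under 0.05 there were 5 members in B6 and 23 in D2, against 3724 and 1158 of all 21070 genes. When arrays were not normalised, 30 members passed in D2. The share of all genes passing without normalisation is not given here, so this count is not read as a result about the members. Median array signals before scaling were 61.17 to 104.9 in D2 enriched and 82.78 to 94.89 in D2 balanced mice. In B6, all enriched mice lay above all balanced mice for Atp5f1 (3.28% of all genes did so) and below them for Ndufb3 (2.46%). In D2 they lay wholly above for 0 members (0.731% of all genes) and wholly below for 8 (0.693%): Atp5d, Atp5g1, Atp5h, Cox6b1, Cox6c, Ndufb6, Ndufs3 and Sdhb. The difference between the strains' responses did not pass for any member (smallest adjusted p 0.13; 20 at an unadjusted p under 0.05, and 1.11% of all genes passed).

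**Figure D1:**
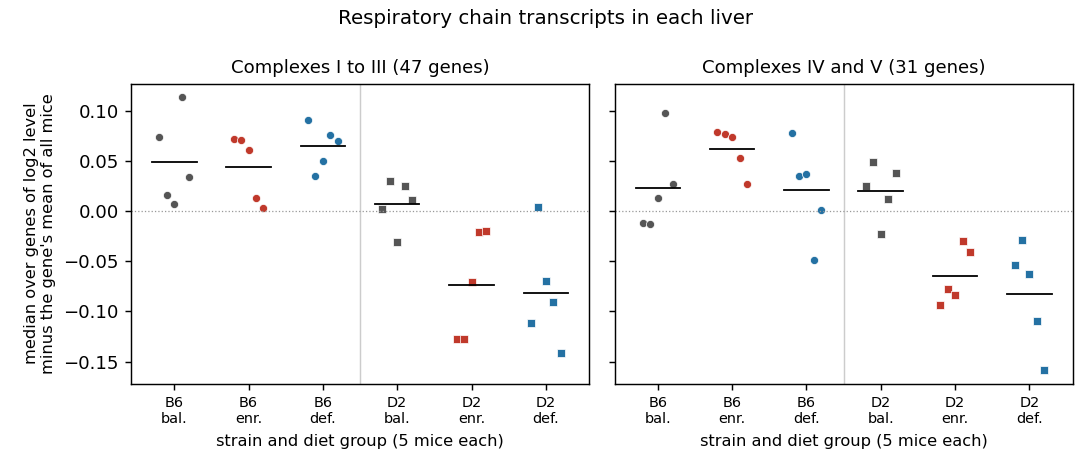
Each point is 1 liver: the median over the 47 genes of complexes I to III (left) or the 31 of complexes IV and V (right) of the log2 level minus that gene's mean of all mice, by strain and diet, with a bar at the group mean. The D2 enriched and D2 deficient livers sit lowest in both panels, with group means of -0.0733 and -0.0819 on the left and -0.065 and -0.0824 on the right; the 3 B6 groups sit above 0 on average.

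The same order appeared in the median level of all members in each liver, relative to each gene's mean. It ran from 0.0067 to 0.1101 log2 units in B6 balanced, 0.0238 to 0.0741 in B6 enriched and 0.0148 to 0.0807 in B6 deficient mice. In D2 it ran from -0.0224 to 0.0337 on the balanced, -0.1232 to -0.02 on the enriched and -0.1415 to 0 on the deficient diet. By scan day, D2 enriched mice stood at -0.0262 and -0.02 on day 1, -0.0705 on day 2 and -0.1188 and -0.1232 on day 3. D2 deficient mice stood at 0 on day 1, -0.0909 and -0.1415 on day 2 and -0.0923 and -0.0655 on day 3. D2 balanced mice stood at 0.0182 on day 1, -0.0224 to 0.0337 on day 2 and 0.032 on day 3. The part of scan day in this level was not tested. The ranges of the 3 B6 groups overlapped one another; those of the D2 balanced and D2 enriched mice overlapped at their edges, as did those of D2 balanced and D2 deficient mice.

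With iron deficiency more members passed than with enrichment, as did more of all genes (8.08% against 2.23%), and the changes were small. Members had smaller SEs than genes at large (median for enrichment 0.0445, against 0.107). The shares passing therefore compare genes of unlike precision. Averaged over the strains, 10 of 83 members passed (12%), where 8.08% of all genes did: 1 was higher, Cycs, where 3.89% of all genes were, and 9 were lower (10.8%), where 4.2% of all genes were. The 9 falls ran from -0.16 to -0.11 log2, that is 7.57% to 10.5% of the level. The median over all members was -0.047 (all genes 0.0008), and 63 of 83 were below 0. The fall of the members relative to all genes held under each scaling tried, at -0.0475 after quantile normalisation, -0.0379 after cyclic loess, -0.1079 after 75th percentile scaling and -0.1066 with none. The number passing did not hold, at 9, 15 and 1 after cyclic loess, 75th percentile scaling and no normalisation; with none, Cycs alone passed. The enriched and the deficient comparison share the balanced mice, and the 9 genes that fell had changes of -0.141 to -0.004 in the enriched livers.

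Cycs, cytochrome c, carries electrons from complex III to complex IV and holds a heme. In D2 its log2 levels were 14.50, 14.61, 14.58, 14.59 and 14.28 on the balanced diet and 14.87, 14.95, 14.96, 14.82 and 14.70 on the deficient diet. In B6 they were 15.17, 14.99, 14.98, 15.30 and 15.10 on the balanced and 15.49, 15.20, 15.49, 15.42 and 15.13 on the deficient diet. Every deficient D2 mouse lay above every balanced D2 mouse, while the B6 groups overlapped. Enriched livers stayed near the balanced ones, at 15.04 to 15.26 in B6 and 14.45 to 14.66 in D2. The rise with deficiency was 0.29 log2 (SE 0.059, adjusted p 0.00273), or 1.22-fold, with 10 of 10 mice above their strain's balanced mean. By strain it was 0.24 in B6 (adjusted p 0.175) and 0.34 in D2 (adjusted p 0.0182). Both of the other Cycs probes had the same sign, at 0.16 and 0.18, and did not pass (adjusted p 0.202 and 0.0904 when every probe was tested). The rise passed in 43 of 44 alternatives, with 0.18 (adjusted p 0.51) on scan day 2 alone and 0.42 (adjusted p 0.0405) on scan day 3 alone, in a range of adjusted p from 0.00136 to 0.51.

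The 9 genes that fell belong to complexes I, II and IV. Sdhb is the iron-sulfur subunit of succinate dehydrogenase. In D2 its log2 levels were 15.08, 15.15, 15.00, 15.09 and 15.15 on the balanced, 14.97, 14.86, 14.89, 14.87 and 14.89 on the enriched and 14.88, 14.87, 14.83, 14.89 and 14.78 on the deficient diet. In B6 they were 15.08, 14.95, 14.96, 15.29 and 15.09 on the balanced and 14.96, 15.12, 14.92, 15.00 and 15.15 on the deficient diet. All D2 mice on either changed diet lay below all balanced D2 mice, and the B6 groups overlapped throughout. The averaged change was -0.15 (SE 0.044, adjusted p 0.0368, 8 of 10 mice below). It passed in 29 of 44 alternatives (adjusted p 0.0154 to 0.499) and was lost without any 1 of 10 mice, namely B6 balanced mice 4 and 5, B6 deficient mice 1, 3 and 4, D2 balanced mice 2, 4 and 5, and D2 deficient mice 3 and 5 (adjusted p 0.0531 to 0.0741).

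Among the accessory subunits of complex I, 5 fell: Ndufb9 (-0.15, adjusted p 0.0174), Ndufa1 (-0.14, adjusted p 0.0443), Ndufb11 (-0.14, adjusted p 0.0451), Ndufb8 (-0.13, adjusted p 0.0276) and Ndufa13 (-0.13, adjusted p 0.0204). Accessory subunits surround the catalytic core and serve its assembly and stability; Ndufa13 is also known as GRIM-19. In D2, Ndufb9 stood at 16.51, 16.52, 16.49, 16.49 and 16.79 on the balanced and 16.35, 16.41, 16.35, 16.27 and 16.26 on the deficient diet. In B6 it stood at 16.40, 16.43, 16.41, 16.49 and 16.34 on the balanced and 16.34, 16.41, 16.31, 16.35 and 16.34 on the deficient diet. The D2 groups did not overlap, the B6 groups did, and D2 balanced mouse 5 lay far above its group; without that mouse the averaged change was -0.12 (adjusted p 0.0251). Ndufa1 and Ndufb11, nearest to the threshold, passed in 19 and 18 of 44 alternatives (adjusted p up to 0.578 and 0.633). Of the catalytic iron-sulfur subunits of complex I, 0 of 5 passed, with changes of -0.03 for Ndufs1, 0.02 for Ndufs7, -0.13 for Ndufs8, -0.03 for Ndufv1 and 0.01 for Ndufv2. Ndufs8 was -0.36 on scan day 3 alone, where the outlying D2 balanced mouse 5 was the only D2 balanced array, and 0.04 on scan day 2 alone.

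In complex IV, Cox6c (-0.16, adjusted p 0.0316), Ndufa4 (-0.14, adjusted p 0.0244) and Cox6a1 (-0.11, adjusted p 0.0376) fell; these are small nuclear-encoded subunits around the catalytic core. Cox7c, another of them, came just short (-0.14, adjusted p 0.0533). Cox6a1, whose promoter is printed above, had D2 log2 levels of 17.83, 17.85, 17.79, 17.77 and 17.92 on the balanced and 17.60, 17.73, 17.60, 17.63 and 17.58 on the deficient diet. In B6 its levels were 17.75, 17.77, 17.79, 17.77 and 17.75 on the balanced and 17.71, 17.75, 17.79, 17.70 and 17.78 on the deficient diet. The D2 groups stood apart and the B6 groups overlapped, and the averaged fall passed in 26 of 44 alternatives. In complexes III and V, 0 of 8 and 0 of 15 genes passed, with medians of -0.054 and -0.032.

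**Figure D2:**
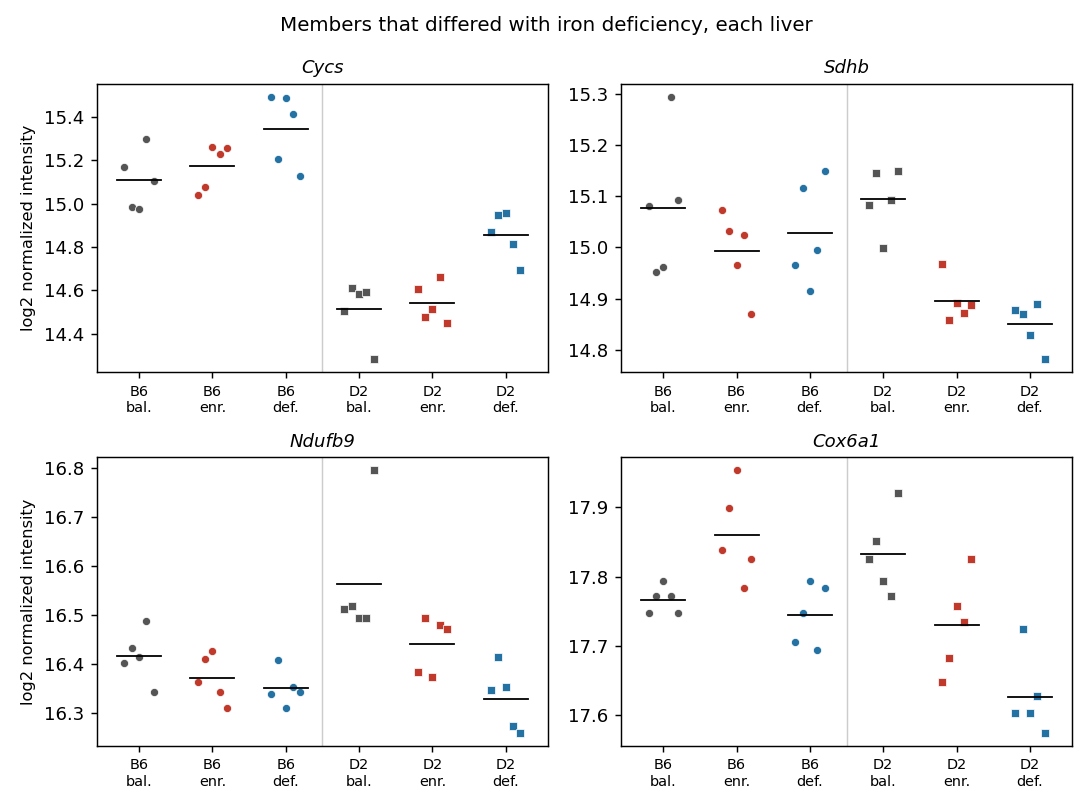
Log2 normalised intensity of Cycs, Sdhb, Ndufb9 and Cox6a1 in each liver, by strain and diet (bal., balanced; enr., enriched; def., deficient), with a bar at the mean of the 5 mice. Cycs is higher and the other 3 lower in deficient than in balanced D2 livers with no overlap, while the B6 groups overlap; the single high D2 balanced point of Ndufb9, at 16.79, is mouse 5.

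Set by class and averaged over the strains, 6 of 47 genes of the iron-holding complexes I to III passed with deficiency (12.8%, all lower). In complexes IV and V 3 of 31 passed (9.68%, all lower), and 4.2% of all genes were lower. The medians were -0.045 and -0.060, and the median of the first class lay 0.0142 above the second, and with cyclic loess 0.0012 above; taken liver by liver, the difference between the classes changed by 0.0155 (SE 0.015). Among the 11 subunits with an iron cofactor, Cycs included, 1 was higher and 1 lower, with a median of -0.025. Among the other 37 subunits of complexes I to III, 0 were higher and 5 lower, with a median of -0.055. For 10 of the 11 cofactor subunits the 95% interval of the change averaged over the strains lay within 0.3 log2 units of 0, Cycs being the exception (0.168 to 0.413). In D2 alone 1 of the 11 was higher and 2 lower, with changes from -0.287 to 0.343. There 7 of 47 genes of complexes I to III and 4 of 31 of complexes IV and V were lower, where 2.9% of all genes were.

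By strain, 12 of 83 members passed with deficiency in D2 (14.5%), 1 higher and 11 lower, where 4.68% of all genes did (1.78% higher, 2.9% lower), and 71 of 83 were below 0 with a median of -0.099 (all genes -0.0043). In B6, 0 of 83 passed in limma's test, where 1.79% of all genes did, 44 were below 0 and the median was -0.004. At an unadjusted p under 0.05 there were 2 members in B6, against 2654 of all 21070 genes. Of the 12, 9 had also passed in the average of the strains; Ndufb4 (-0.19, adjusted p 0.0431), Ndufs8 (-0.29, adjusted p 0.0403) and Cox7a1 (-0.63, adjusted p 0.0225) passed in D2 and not in the average. The smallest adjusted p belonged to Cox6a1 (-0.21, 0.0142), Ndufb9 (-0.23, 0.0155), Ndufa13 (-0.21, 0.0173), Ndufb11 (-0.25, 0.0173) and Cox6c (-0.28, 0.0182), the last with 1 D2 balanced value missing. The D2 deficient mice lay wholly below the balanced ones for 19 members, against 4.01% of all genes, and wholly above for Cycs (2.5%); in B6 there were 0 above (1.61% of all genes) and 0 below (1.09%). The strains' responses did not differ at the threshold for any member by limma's interaction test (smallest adjusted p 0.391), where 0.019% of all genes passed. At an unadjusted p under 0.05 there were 16 members, against 1500 of all 21070 genes. The 9 genes that fell in the average were below 0 in B6 as well, at -0.09 to -0.021, against -0.277 to -0.181 in D2.

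Single arrays weigh on these counts. Without D2 balanced mouse 5, the only D2 balanced array of scan day 3, 6 members passed in the average (5 of the 10, namely Cycs, Ndufa13, Ndufa4, Ndufb8 and Ndufb9) and 3 in D2 (2 of the 12, Cox6a1 and Ndufb9). Without B6 deficient mouse 4, 4 passed in the average, without D2 deficient mouse 3 or 5 there were 5, and without B6 balanced mouse 2, 3, 4 or 5, D2 balanced mouse 2 or D2 deficient mouse 4 there were 6; without D2 deficient mouse 4, 7 passed in D2. With scan day as a block the counts were 10 and 16, on scan day 2 alone 0 and 0 and on scan day 3 alone 4 and 6; with 75th percentile scaling 24 passed in D2. There was 1 B6 balanced array on scan day 2 and 1 D2 balanced array on scan day 3, so the single-day counts rest on 1 mouse for those groups. The share of all genes passing under these settings is not given here. The part of single arrays in the result was not tested.

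**Figure D3:**
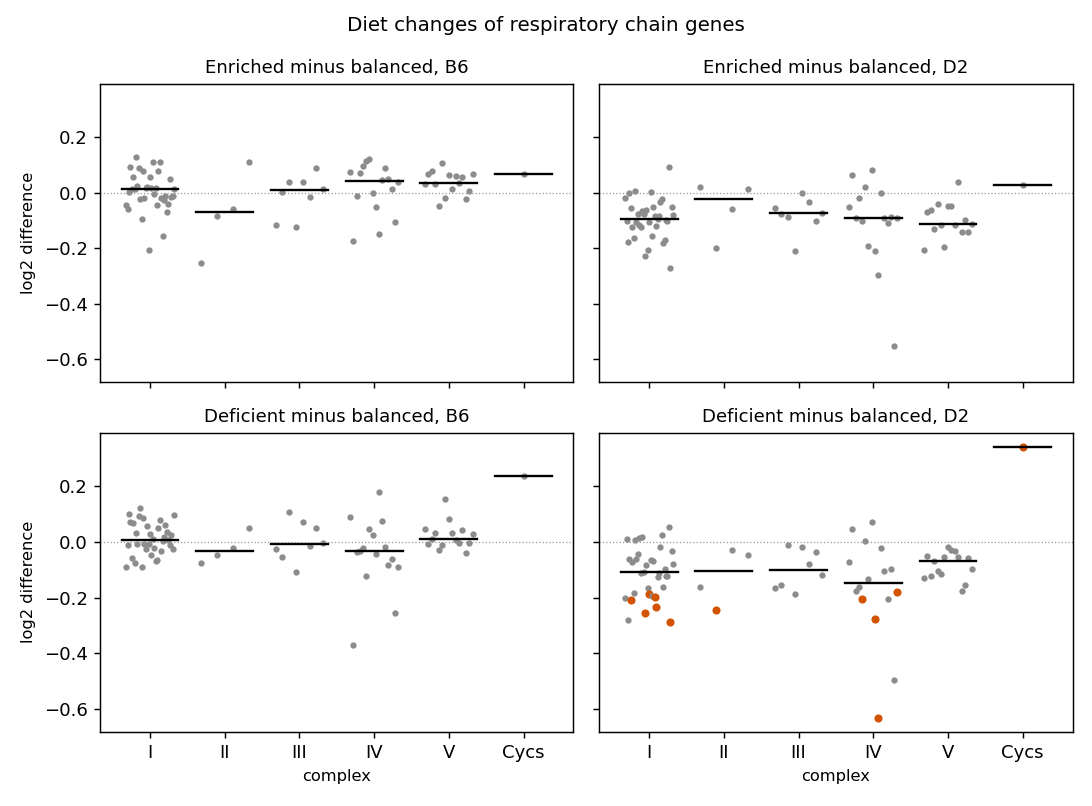
Each point is 1 gene: its log2 difference from the balanced diet, by complex and for Cycs, with enrichment above and deficiency below, B6 on the left and D2 on the right. Orange points passed limma's test at an adjusted p under 0.05, grey points did not, and bars are medians. Orange points occur only in the panel for deficiency in D2; they are Cycs at 0.34 and 11 genes below 0 in complexes I, II and IV, down to -0.63 for Cox7a1.

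Cox7a1 is the heart and muscle form of a complex IV subunit. Its log2 levels in D2 were 9.45, 9.35, 9.45, 9.08 and 9.43 on the balanced and 8.92, 8.76, 8.75, 8.57 and 8.61 on the deficient diet, with no overlap. In B6 they were 9.69, 10.03, 10.06, 9.58 and 9.86 on the balanced and 10.33, 9.60, 10.61, 9.90 and 9.67 on the deficient diet, with wide overlap. Of 7 skeletal muscle markers tested, 0 passed in D2 with deficiency (median -0.011) and 0 between the strains, and their summed signal was 385.5 to 725.7 in D2 balanced and 393.2 to 524.9 in D2 deficient mice. With deficiency averaged over strains, 1 muscle marker was lower (Mylpf, -0.43), 3 of 6 stellate and 2 of 6 sinusoidal endothelial markers were higher, 1 of 5 erythroid markers was lower (Alas2, -0.62), and 0 of 5 hepatocyte, 0 of 6 Kupffer cell, 0 of 5 cholangiocyte and 0 of 6 lymphocyte markers passed. Of 4 fat markers 0 passed, with medians of -0.60 averaged and -0.41 in D2, and their summed signal was 48.6 to 501.8 in D2 balanced and 122 to 277.3 in D2 deficient mice. The part of these cells in the members' changes was not tested. In whole liver, fewer cells of a type and less RNA per cell cannot be told apart.

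The strains differed far more than the diets. D2 and B6 livers, averaged over the diets, differed in 46 of 83 members (55.4%), where 50.1% of all genes did, so the share lay near that of the whole array. Of these, 8 were higher in D2, where 25.9% of all genes were, and 38 lower, where 24.2% were. The lower ones ran from -0.811 to -0.081 log2 with a median of -0.191, and the higher ones from 0.084 to 0.567. The median over all members was -0.081 (all genes -0.0116). That members lay lower than genes at large held after quantile normalisation (-0.069) and cyclic loess (-0.0594) but turned with 75th percentile scaling (0.0211) and with none (0.012). The split moved with it, from 8 higher and 38 lower to 4 and 42 with cyclic loess, 10 and 23 with 75th percentile scaling, and 2 and 57 with none. These last 2 moved the median of all genes to -0.0648 and -0.168.

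Cycs, the carrier of heme c, was 0.57 log2 lower in D2 (log2 difference -0.57, SE 0.049, adjusted p 1.12e-10), or 1.49-fold, in 15 of 15 mice, and no D2 liver on any diet reached the lowest B6 liver (14.28 to 14.96 against 14.98 to 15.49). Its other probes were lower too, at -0.47 and -0.44. Of the remaining cofactor subunits, Sdhc (-0.29, adjusted p 7.12e-07), Ndufv2 (-0.19, adjusted p 8.3e-05), Ndufs1 (-0.14, adjusted p 0.00723), Sdhb (-0.09, adjusted p 0.047) and Uqcrfs1 (-0.08, adjusted p 0.0124) were lower, and Sdhd was higher (0.09, adjusted p 0.0495). Ndufs7 (-0.08), Ndufv1 (-0.07), Cyc1 (-0.04) and Ndufs8 (-0.01) did not pass. Sdhb passed in 16 and Sdhd in 15 of 43 alternatives. The dim other Sdhc probe, at 0.63, did not pass.

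Complex I held most of the lower genes. In it 23 of 35 were lower (65.7%, where 24.2% of all genes were) and 2 higher (Ndufb8 and Ndufb11), with a median of -0.136. With 75th percentile scaling 14 were lower and 3 higher (median -0.078, against -0.0648 over all genes). The largest were Ndufc2 (-0.44, adjusted p 1.86e-08), Ndufb6 (-0.35, adjusted p 2.71e-09) and Ndufa5 (-0.34, adjusted p 2.81e-07), all accessory subunits and lower in 15 of 15 mice. Each of them was measured by a single probe. Among the 30 subunits without an iron-sulfur cluster 21 were lower, and among the 5 with one 2 were. In complex II, whose 4 genes split evenly, Sdha, the flavin subunit that oxidises succinate, was higher (0.28, adjusted p 8.65e-05, 14 of 15 mice), as was Sdhd, while Sdhb and Sdhc were lower. In complex III, Uqcrb (-0.30, adjusted p 7.54e-08, 13 of 13 mice with a value) and Uqcrfs1 were lower, and the small subunits Uqcr (0.09) and Uqcrq (0.08) higher; the medians of complexes II and III were 0.004 and -0.026 and changed sign between scalings (-0.069 to 0.044 and -0.102 to 0.01).

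In complex IV, 4 of 16 genes were lower (25%, and 4 to 8 genes over the scalings), a share near the 24.2% of all genes. Among them were Cox7a1 (-0.81, limma adjusted p 3.06e-08) and Cox6b1 (-0.33, adjusted p 8.03e-08). In the other direction 1 gene was higher, where 25.9% of all genes were. That one was Cox7c, with balanced levels of 13.59, 13.89, 13.78, 13.76 and 13.78 in B6 and 14.33, 14.44, 14.31, 14.43 and 14.59 in D2. Over all diets it ran from 13.55 to 13.89 in B6 and from 14.15 to 14.59 in D2, with no overlap. The difference was 0.57 (SE 0.037, adjusted p 6.34e-13), 1.48-fold, and within scan days 2 and 3 it was 0.61 and 0.57.

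In complex V, 6 of 15 genes were lower (40%, where 24.2% of all genes were) and 0 higher, with a median of -0.071. With 75th percentile scaling 2 were lower and 1 higher, and with no normalisation 13 were lower. Atp5h stood apart from the rest in size. On the balanced diet B6 livers had 16.14, 16.09, 16.15, 16.23 and 16.14, and D2 livers 15.78, 15.73, 15.83, 15.81 and 15.81. On any diet D2 livers lay between 15.64 and 15.83 and B6 livers between 16.07 and 16.31. The difference was -0.43 (SE 0.027, adjusted p 2.48e-13), or 1.35-fold lower, its other probe gave -0.41, and within scan days 2 and 3 it was -0.44 and -0.41. Its diet changes were -0.03 with enrichment and -0.01 with deficiency (SE 0.033). The others were Atp5g1 (-0.20), Atp5j2 (-0.13), Atp5g2 (-0.10), Atp5j (-0.09) and Atp5k (-0.09). These counts depend on the probe that stands for a gene. The other Atp5g2 probe was 0.07 and did not pass when every probe was tested. Atp5b (-0.045) and Atp5f1 (-0.04) did not pass by their brightest probes. Their further probes passed, at -0.23 and -0.19 for Atp5b and at -0.16 and 0.37 for Atp5f1.

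**Figure D4:**
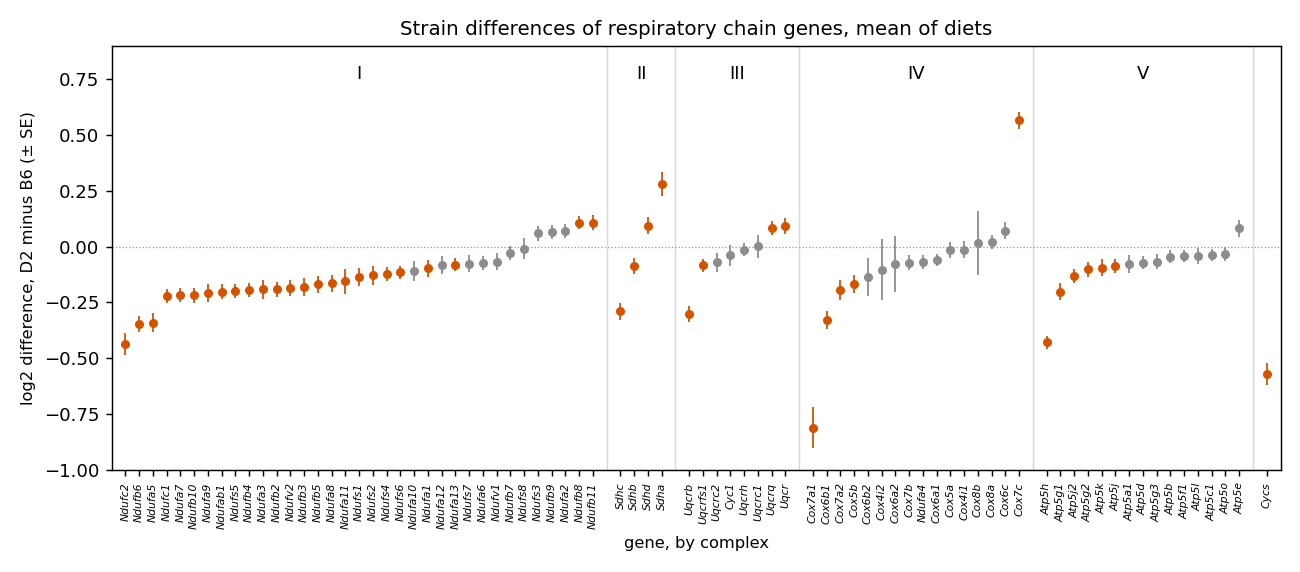
Log2 difference D2 minus B6, averaged over the diets, for each gene of complexes I to V and for Cycs, ordered by size within each complex; bars are SEs, orange genes passed limma's test at an adjusted p under 0.05 and grey genes did not. Complex I holds 23 genes below 0 in orange, and Cox7c at 0.57, Cox7a1 at -0.81, Cycs at -0.57 and Atp5h at -0.43 stand out from their complexes.

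**Figure D5:**
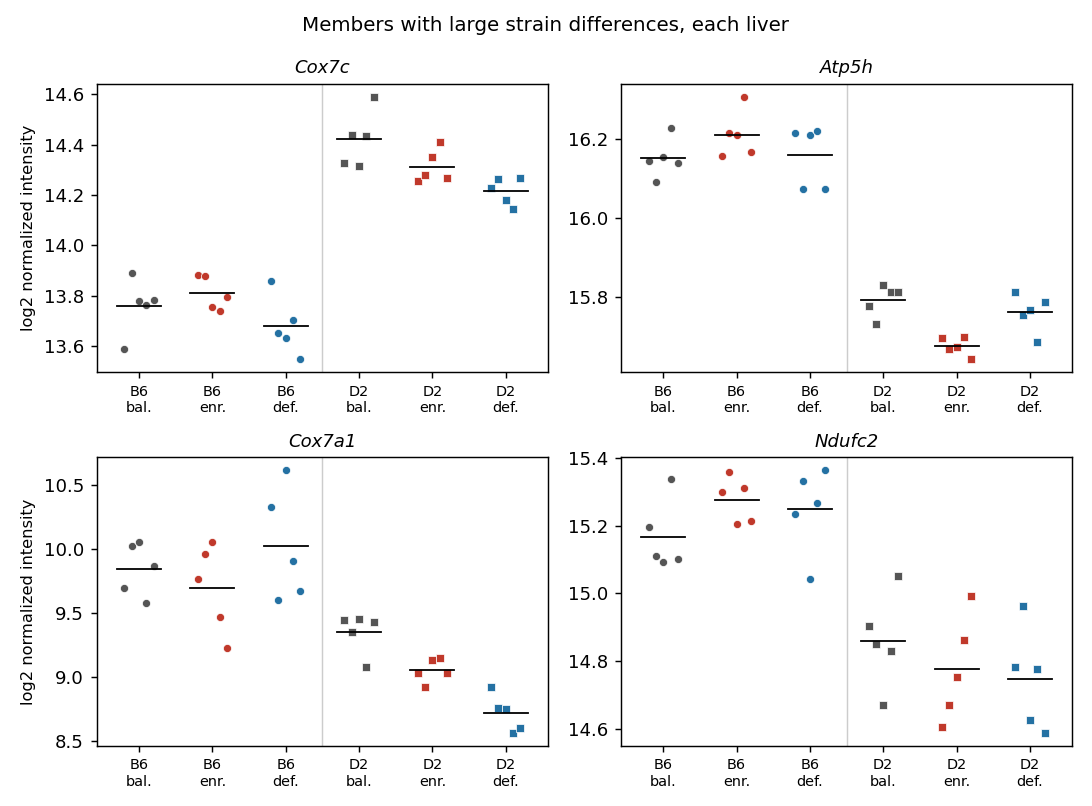
Log2 normalised intensity of Cox7c, Atp5h, Cox7a1 and Ndufc2 in each liver, by strain and diet (bal., balanced; enr., enriched; def., deficient), with a bar at the mean of the 5 mice. Cox7c is higher and the other 3 are lower in D2 on each diet; for Cox7c and Atp5h no D2 liver overlaps any B6 liver.

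Of all genes 50.1% differed between the strains, and 24.2% were lower in D2. Across complexes I to III, 27 of 47 genes were lower and 6 higher in D2 (70.2% passing), against 10 lower and 1 higher of 31 in complexes IV and V (35.5%). The gap in these shares changed with the scaling: the counts passing were 28 of 47 against 16 of 31 with cyclic loess, 23 against 8 with 75th percentile scaling and 35 against 22 with no normalisation. The medians were -0.109 and -0.071. Their difference of -0.0379 was -0.0194 with cyclic loess and -0.019 with 75th percentile scaling, and leaving out single mice gave -0.0523 to -0.0244. Taken liver by liver, the difference between the classes was -0.0243 (SE 0.0123) in D2 relative to B6. In each diet the strains stood wholly apart for part of the members: 5 higher and 8 lower in D2 among balanced mice (all genes 11% and 8.17%), 3 and 27 among enriched mice (14.7% and 12.9%) and 1 and 26 among deficient mice (11% and 9.6%).

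Probes to the same gene did not always agree on the strain. Of the 46 genes, 15 had further probes that could be measured, 18 in all: 9 had the same sign and passed, 4 the same sign without passing, and 5 the opposite sign, 2 of them passing. Ndufb8 was 0.11 by its brighter probe and -0.56 by the dimmer, Ndufa3 was -0.19 and 0.85, and Ndufa12, which did not pass at -0.08, had further probes at 0.44 and 0.49. Sdha was 0.28 and 0.05. For Cycs and Atp5h all probes gave the same sign. Ndufc2, Ndufb6, Ndufa5, Cox7a1, Cox6b1, Uqcrb and Cox7c each had a single probe, so their strain differences could not be compared between probes. Why probes of a gene differed was not tested. With deficiency, 3 of the 10 genes had 4 further probes, all of the same sign and 0 passing. Kupffer cell markers were lower in D2 for 6 of 6 genes (median -0.74), with summed signals of 25920 to 41490 in D2 and 42980 to 93850 in B6, and sinusoidal endothelial markers for 6 of 6 (median -0.25). Cholangiocyte markers were lower for 3 of 5 (median -0.52) and higher for 0, erythroid markers higher for 2 of 5, stellate markers higher for 2 and lower for 1 of 6, lymphocyte markers lower for 1 of 6 and fat markers higher for 1 of 4. Hepatocyte markers were higher for 2 and lower for 2 of 5 and summed to 871100 to 1026000 in D2 and 993300 to 1161000 in B6. The part of cell makeup in the strain differences was not tested.

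Genes that build or serve the chain were looked at beside it. Assembly factors, which mount the complexes and insert their cofactors, fell with deficiency in 5 of 26 genes tested and rose in 0 (median -0.091), where 4.2% of all genes fell: Nubpl (-0.21), Bcs1l (-0.18) and Ecsit (-0.16) were among them. In D2 alone 7 fell and 0 rose, where 2.9% of all genes fell, led by Nubpl, which delivers iron-sulfur clusters to complex I (-0.38, adjusted p 0.00616), and Sdhaf4 (-0.30, adjusted p 0.0133). Of 78 genes named as mitochondrial ribosome proteins, 5 fell and 0 rose with deficiency (median -0.045), where 4.2% of all genes fell, with Mrps36 at -0.23. In D2 alone 10 of the 78 fell and 0 rose, where 2.9% of all genes fell and 11 of 83 members did. Of 16 regulators of mitochondrial biogenesis, Gabpb1, a partner of GABPA, rose (0.26) and Esrra fell (-0.19); Ppargc1a, their co-activator, rose in D2 (1.03, adjusted p 0.0381), with 0.51 on average (adjusted p 0.134). Of 13 genes of the citric acid cycle, Fh1 rose (0.35) and Idh3b fell (-0.13), and of 14 porins and import proteins Tomm20 (0.15) and Tomm70a (0.16) rose. With enrichment, 0 of 26, 1 of 78, 0 of 16, 0 of 13 and 0 of 14 passed in these lists by limma's test, and 0 of 4 nucleotide and phosphate carriers with either diet. Of the falls with deficiency averaged over the strains, none in the assembly and ribosome lists passed with no normalisation (medians -0.064 and -0.019), and 5 and 11 did with 75th percentile scaling; in these lists the median stayed below 0 under each scaling. The rises of Tomm20 and Tomm70a did not pass with 75th percentile scaling or with none, and that of Tomm20 not with cyclic loess (adjusted p 0.076). Fh1 did not pass with 75th percentile scaling (adjusted p 0.0523), nor did Idh3b and Esrra with no normalisation (adjusted p 0.0617 and 0.102).

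Between the strains the lists differed in their counts. Citric acid cycle genes were lower in D2 for 10 of 13 and higher for 0 (median -0.25), with Fh1 at -1.01. Porins and import proteins were lower for 10 of 14 and higher for 3 (median -0.21), with Tomm22 at -1.11. The citric acid cycle and import lists kept medians below 0 under each scaling (-0.311 to -0.199 and -0.282 to -0.172). Assembly factors were higher for 10 and lower for 7 of 26 (5 and 10 with no normalisation), and ribosome proteins higher for 19 and lower for 20 of 78 (22 and 13 with 75th percentile scaling, 3 and 30 with none), with Mrpl41 at -0.94. Of the regulators 5 were higher and 5 lower (1 and 7 with no normalisation), with Ppargc1a at -1.24, and of the 4 carriers 1 was higher and 3 lower, with Slc25a4, the ADP/ATP carrier of heart and muscle, at -0.31. Over all genes 50.1% passed.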

How the data were processed

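RNA from 30 mouse livers was hybridised to Agilent 4x44K arrays in a single colour. The deposited files hold scanner intensity values, processed (background-subtracted) by Feature Extraction 9.1.3.1 per the file headers. From these, outlier spots were set missing, control spots dropped, spots averaged by probe, arrays quantile normalised as the series text describes, values floored at 13.93 and taken to log2. Of 41174 probes, 29986 were kept that were well above background on at least 3 B6 and 3 D2 arrays; 62.46% to 78.38% of probes were above background per array. The brightest kept probe stood for each gene. One limma 3.58.1 fit (R 4.3.3) of the 6 group means gave all comparisons, with Benjamini-Hochberg adjustment over 21070 genes at 0.05. It was run on simulated data with independent noise and shifts with enrichment only. These held no differences of scan day, slide or scaling, so the run cannot speak to those. The series text states a 2-way ANOVA with R/maanova, not used here. The deposited value table equals the array intensities. Arrays lay on 10 slides scanned on 3 days (5, 11 and 14 arrays), 1 day being too small to fit alone. In the fits of days 2 and 3 alone some groups held 1 array. The array design names 103 member probes through RefSeq accessions, 12 through symbols and 2 as in the file.

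Members and lists were chosen with earlier results of these data known. Named in the text are all subunits with an iron cofactor, the largest passing rises and falls (up to 10 each) of every averaged comparison, up to 5 of each strain's, the tissue isoforms, and up to 4 passing genes of each other list; genes beyond this were chosen after their values were seen. The number of mice limits the precision, and no source used here tells whether mice shared a cage or litter. Alternatives covered scaling, background (normexp, offset 50), filters (including 2.6 SD), probe choice, scan day, slide and single mice. Figures were drawn with matplotlib 3.10.9 in Python 3.11.15.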

Additional observations from a re-analysis of the deposited data

Results flagged for a closer look

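In groups of 5 mice, a value far from the other 4 was looked for by Dixon's criterion in 33 genes, with 210 groups tested in all. Chance alone would mark about 1 of 20 groups, and 12 of the 210 were marked, a share near that. D2 balanced mouse 5 was marked 3 times: Ndufs8 was 12.05 (the others 11.58 to 11.7), Ndufb9 16.79 (16.49 to 16.52) and Sdha 13.85 (14.34 to 14.54). B6 enriched mouse 4 was marked for Uqcrfs1, at 15.47 (15.54 to 15.57), and for Cox6b1, at 10.73 (10.83 to 10.85). In B6 balanced livers, mouse 1 had Ndufs8 at 11.32 (11.56 to 11.66), mouse 3 had Ndufa13 at 16.63 (16.54 to 16.57) and mouse 4 had Ndufv2 at 13.77 (13.4 to 13.51). B6 enriched mouse 5 had Ndufc1 at 14.23 (14.32 to 14.34). In D2, enriched mouse 3 had Uqcrfs1 at 15.42 (15.46 to 15.47), deficient mouse 5 had Ndufa1 at 14.38 (14.51 to 14.55) and balanced mouse 4 had Cox7a1 at 9.08 (9.35 to 9.45). All values are log2 intensities.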

How the results depend on the processing

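Of 38 passing single-gene results checked in this way, all but 2 kept their direction over up to 44 alternatives. They covered cofactor subunits and the largest passing rises and falls of the members, not every gene named above. Between the strains, with the mean of all kept probes, Sdhc was 0.17 (limma adjusted p 0.353) and Ndufb8 -0.22 (adjusted p 9.44e-06). Ndufa3, with probes at -0.19 and 0.85 between the strains, was not among the 38. Of 24 checked results that did not pass, 16 took both signs and 6 passed in some alternative. Counts of members passing moved as follows, and the cause was not tested. On scan days 2 and 3 alone some groups held 1 array, so those counts are no repeat of a result. The shares of all genes passing in the alternatives are not given, so the counts are not read against them. With enrichment (1 passing) there were 0 with 75th percentile scaling, on scan day 2 alone and with only the groups compared, 2 without normalisation, with every probe as a feature and with unmoderated variances, 5 on scan day 3 alone, and 0 to 1 leaving out single mice. With deficiency (10) there were 1 without normalisation, 0 and 4 on scan days 2 and 3, 2 with only the groups compared, and 4 to 11 leaving out single mice. Between strains (46) there were 22 on scan day 2 and 42 to 49 leaving out single mice. With enrichment in B6 (0) there was 1 with normexp, with slide as a block and with unmoderated variances, and 0 to 1 leaving out mice; in D2 (0) there were 30 without normalisation, 5 on scan day 3 and 0 leaving out mice. With deficiency in D2 (12) there were 24 with 75th percentile scaling, 7 with normexp, 0 and 6 on scan days 2 and 3, 1 with only the groups compared and 3 to 13 leaving out mice; in B6 the count was 0 leaving out mice. For the difference between the strains' enrichment effects (0) there were 1 with 75th percentile scaling, 31 without normalisation, 2 with the 2.6 SD filter, no filter, scan day 3 or unmoderated variances, and 0 to 1 leaving out mice; for deficiency 0. The median of complexes I to III less that of IV and V, between strains, was -0.0837 on scan day 2; leaving out mice it was -0.0148 to 0.0003 for enrichment, -0.0012 to 0.0191 for deficiency and -0.0523 to -0.0244 for strain. In the other alternatives these counts stayed within 1.5 times. No paired analysis was possible because the replicate numbers follow accession order and pair no mice. Signal over background limits Cox8b and Cox4i2 most.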
